A study of Mus musculus with 45 samples.

Results

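Sfmbt2, Gab1, Igf2r, Grb10, Peg10 and Commd1 are 6 mouse genes known to be imprinted, that is, expressed mainly or only from 1 parental copy, in at least some tissues, and they lie outside the imprinted cluster of distal chromosome 7. They were chosen by gene symbol and, like the gene lists used below, with earlier results of these data known. Counts of members or listed genes set beside all genes are thus descriptions. All 6 had a row in each of the 3 tables analysed, out of 10176 genes at E5.25, 13060 at E5.5 and 13618 at E5.75. The annotated positions match the label: Sfmbt2 lies on chromosome 2, Gab1 on 8, Igf2r on 17, Peg10 on 6, and Grb10 and Commd1 on 11.

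The study measured RNA along the proximal-distal axis of untreated mouse embryos shortly after implantation, at E5.25, at E5.5 and at E5.75. Frozen embryos freed from the decidua, the maternal tissue around them, were cut into numbered sections, and pieces were taken by laser capture microdissection and sequenced by Smart-seq2, a full-length method for very small amounts of RNA. Of 45 samples, 7 were E5.25 sections, 17 were E5.5 section parts, 19 were E5.75 sections and 2 came from sections 6 and 7 of E5.75 and carry the mark VE, which usually stands for visceral endoderm. The labels name no strain, genotype or sex. Values were used for 7 sections of E5.25, for 9 section numbers of E5.5 and for 17 sections and both VE libraries of E5.75 (sections 9 and 13 were not analysed here). The labels speak of 1 embryo per stage, so sections are positions and not replicate animals, and a p-value compares positions within that embryo only. Which end of the axis section 1 marks is not given, so directions follow section number. At E5.75, sections 10 to 19 are called the upper sections (n = 9) and sections 1 to 8 the lower sections (n = 8).

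At imprinted genes, a mark from the egg or the sperm sets which copy is silenced. At many it is DNA methylation. At some, among them Sfmbt2 and Gab1 in the mouse, it is the histone mark H3K27me3 from the egg, and the imprint is kept mainly in extraembryonic tissue. Several of the 6 act in the placenta, which comes from the extraembryonic ectoderm and the ectoplacental cone, the tissues that sit above the epiblast from which the embryo proper forms. The tables sum both parental copies, so imprinting itself was not measured.

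Values are log2(FPKM + 1), where FPKM is fragments per kilobase of transcript, scaled to the size of the library. A value of 0 is given as a listing of 0, since low-yield libraries list many genes at 0. Between 5303 and 8217 genes reached an FPKM of 1 in the E5.75 sections, except for 3211 in section 1 and 3424 in section 2. The VE libraries held 1496 and 2147 such genes, and Rn45s, the ribosomal RNA precursor, took 62.2% and 48.8% of their summed FPKM. Without counts in the tables, the depth of sequencing is unknown. In pieces of tissue, fewer cells of a type and less RNA per cell cannot be told apart.

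At E5.75, Sfmbt2 was at 4.63 to 5.89 in every upper section and at or below 1.53 in every lower section. Gab1 and Igf2r were also higher in the upper sections, by 2.46 ± 0.43 and 1.70 ± 0.41 on the log2 scale, and Peg10 by 1.61 ± 0.45 (SE, n = 9 and 8). Grb10 and Commd1 did not pass. Thus 4 of 6 rose in the upper sections (adjusted p under 0.05, limma with Benjamini-Hochberg adjustment over all genes tested), where 10.4% of 11149 genes tested did. As a line over all 17 sections, 3 of the 6 rose (Sfmbt2, Gab1 and Igf2r), against 18.9% of all genes tested. The median change of the 6 over the line was 2.17, and that of all genes tested was 0.80. With quantile normalization 2 of the 6 rose along the line (Sfmbt2 and Gab1), and the median of the 6 was 1.17. The median of all genes was then 0.16, and 845 rose and 500 fell, against 2108 and 231 without it. For the upper against the lower sections that scaling gave 550 higher and 414 lower genes, against 1163 and 234. Of the members, only Sfmbt2 and Gab1 were higher with it.

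**Figure D1:**
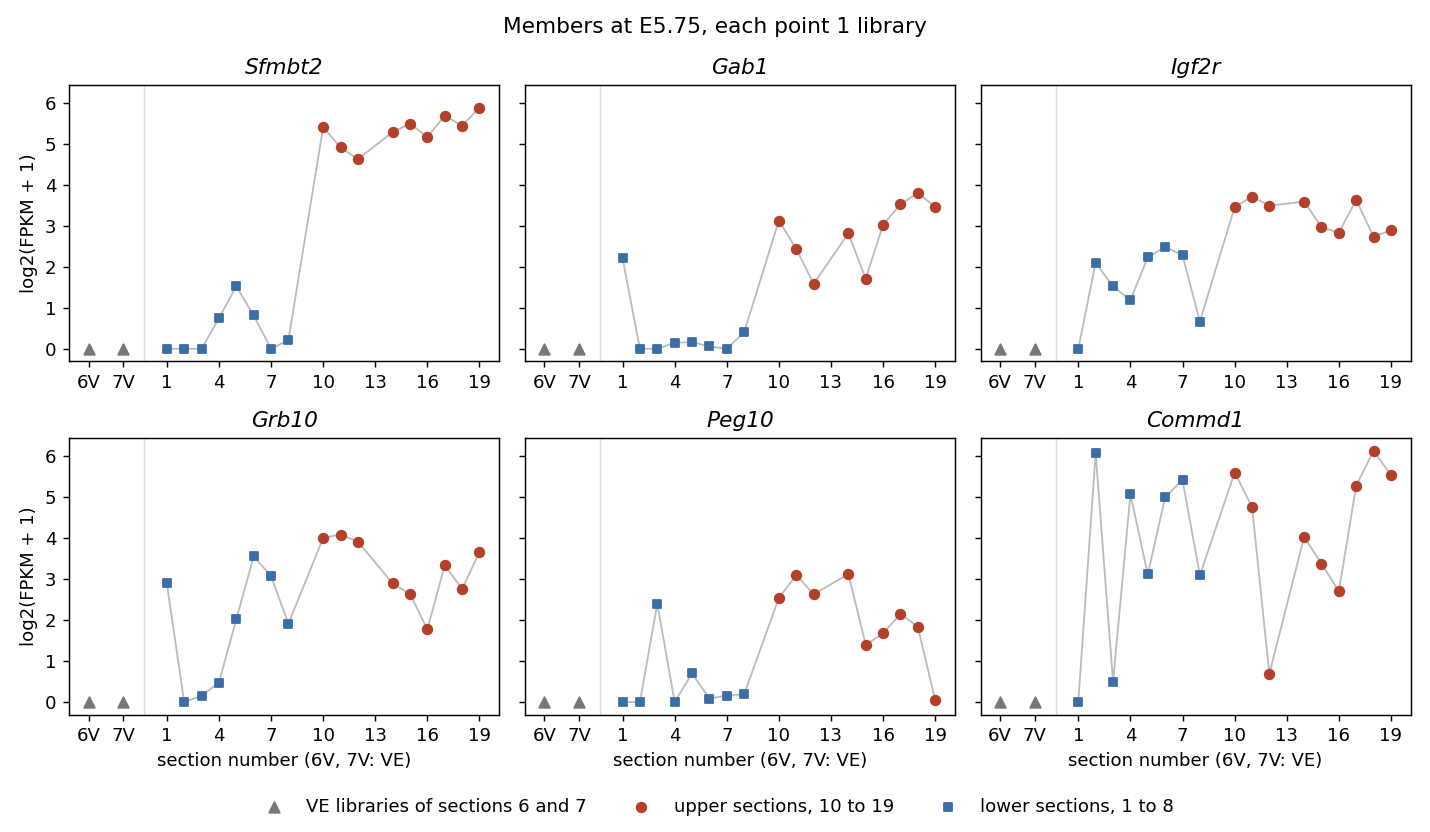
Level of each of the 6 genes in log2(FPKM + 1) against section number at E5.75, with 1 point per library. Triangles at the left are the VE libraries of sections 6 and 7, all at 0. Circles are the upper sections and squares the lower ones. Sfmbt2 stands at 4.63 or higher in every upper section and at 1.53 or lower in every lower one.

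Sfmbt2 encodes a chromatin protein with MBT domains that is related to polycomb repressors and is needed in trophoblast. It lies on chromosome 2 from 10370510 to 10595253 on the plus strand (GRCm38, the build that mm10 names). It was listed at 0 in lower sections 1, 2, 3 and 7, and stood at 0.75 in section 4, 1.53 in section 5, 0.81 in section 6 and 0.21 in section 8. In the upper sections the lowest value was 4.63 in section 12, the median 5.41 and the highest 5.89 in section 19. The groups did not overlap, as for 1.79% of genes tested. In FPKM the medians were 41.6 in the upper sections and 0.077 in the lower sections. The difference was 4.92 ± 0.37 (log2, SE, adjusted p = 2.89e-09, limma), which ranked 6 of 11149 genes by p. Fitted as a line it was 7.09 ± 0.83 from the first to the last section (adjusted p = 4.31e-06). Both calls held in all 26 alternatives, from 3.04 to 7.15 for the upper against the lower sections.

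Gab1 encodes a docking protein that links receptor tyrosine kinases such as Met and the EGF receptor to the phosphatase Shp2 and to PI3 kinase, and mice without it have placental defects. The gene occupies chromosome 8 from 80764438 to 80880519 on the minus strand. In the upper sections it ranged from 1.59 in section 12 to 3.81 in section 18, with a median of 3.03. In the lower sections it was at 2.21 in section 1 and between 0 and 0.40 in the others, with a median of 0.10. Section 1, where few genes were detected, is thus the lower section through which the groups overlap, above upper sections 12 and 15. The difference was 2.46 ± 0.43 (adjusted p = 0.000449, limma) and the fitted change along the line 3.56 ± 0.73 (adjusted p = 0.00175), and both passed in all 26 alternatives.

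The 250 bases before a RefSeq start of each gene (GRCm38.p6) are shown because these are the 2 members with the largest differences between the upper and the lower sections. Of the 5 members that have such windows, they are also the ones with a window that holds the letters GCCNNNGGC, the palindrome bound by TFAP2 factors. RefSeq gives each of the 2 genes another start as well, and those shown belong to the start that the RefSeq table lists first: the other Sfmbt2 window (chr2:10372186-10372435) holds no such letters, while the other Gab1 window overlaps the one shown and holds the same TFAP2 letters. Capitals mark that motif and, in the Gab1 window, the YY1 letters AAGATGGC. The Sfmbt2 window is chr2:10370201-10370450 on the plus strand and the Gab1 window chr8:80880520-80880769 on the minus strand, both written along the gene.
Sfmbt2: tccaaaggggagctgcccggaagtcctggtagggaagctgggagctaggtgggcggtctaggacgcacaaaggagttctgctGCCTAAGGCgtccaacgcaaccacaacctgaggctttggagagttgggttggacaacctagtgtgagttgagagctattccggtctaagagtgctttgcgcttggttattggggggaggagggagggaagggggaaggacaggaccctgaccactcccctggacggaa
Gab1: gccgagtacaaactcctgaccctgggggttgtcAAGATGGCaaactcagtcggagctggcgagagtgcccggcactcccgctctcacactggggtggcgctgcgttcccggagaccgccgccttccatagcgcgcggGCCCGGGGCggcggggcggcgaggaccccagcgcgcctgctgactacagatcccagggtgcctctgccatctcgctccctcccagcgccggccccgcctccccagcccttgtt
Counting the base before the start as -1, the TFAP2 letters begin at -168 in Sfmbt2 and at -113 in Gab1, and the YY1 letters at -217 in Gab1. Searched on both strands, the TFAP2 letters occur in 13.7% of 32851 RefSeq windows of that length and the YY1 letters in 1.57%, and the hits in these windows do not overlap. A match is only a description of the letters.

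Igf2r encodes the cation-independent mannose 6-phosphate receptor, which carries lysosomal enzymes to the lysosome and removes the growth factor IGF2 from outside the cell. It is expressed from the maternal copy in most mouse tissues, while the antisense RNA Airn is made from the paternal one. The gene runs on chromosome 17 from 12682406 to 12769664 on the minus strand. In the upper sections Igf2r stood between 2.74 in section 18 and 3.72 in section 11, with a median of 3.46. In the lower sections it was listed at 0 in section 1 and reached 2.49 in section 6, with a median of 1.81. Every upper section was above every lower one, as for 1.79% of genes tested, but by little (2.74 in section 18 against 2.49 in section 6). The difference was 1.70 ± 0.41 (adjusted p = 0.00836, limma), and quantile normalization (1.14, adjusted p = 0.0900) or a covariate for the number of genes detected (1.26, adjusted p = 0.107) ended that call. The change along the line, 2.29 ± 0.69 (adjusted p = 0.022), did not pass without section 1 (1.72, adjusted p = 0.06995) nor with either of those settings or a common sum of FPKM (2.04, adjusted p = 0.0645).

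Airn and Igf2r overlap over 28354 bases, and 519 of the 9308 exon bases of Igf2r lie inside the body of Airn. The sources used here do not state that strand was kept, so reads from these bases cannot be assigned to 1 of the 2 genes. Airn was at 3.38 in upper section 11 and 0.89 in upper section 15, and was listed at 0 in the other upper sections, in all lower ones and in both VE libraries. The window before the RefSeq start of Igf2r (chr17:12769707-12769956, minus strand) is shown for its E-boxes, CACGTG, letters bound by many basic helix-loop-helix factors.
Igf2r: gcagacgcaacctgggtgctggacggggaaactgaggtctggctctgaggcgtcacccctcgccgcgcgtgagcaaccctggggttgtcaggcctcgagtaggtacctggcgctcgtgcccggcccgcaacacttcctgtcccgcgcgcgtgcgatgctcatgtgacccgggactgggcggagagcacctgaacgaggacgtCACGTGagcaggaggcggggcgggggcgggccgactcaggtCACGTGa
Capitals mark the E-boxes, which begin at -48 and -7. These letters, the same on both strands, occur in 6.02% of all windows.

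Grb10 encodes an adaptor that binds the insulin and IGF1 receptors and dampens their signal, and it limits growth of embryo and placenta from the maternal copy. It lies on chromosome 11 from 11930508 to 12038683 on the minus strand. In the upper sections its lowest value was 1.77 in section 16, its median 3.34 and its highest 4.09 in section 11. In the lower sections it was listed at 0 in section 2, had a median of 1.97 and reached 3.56 in section 6. The groups overlap widely, with lower sections 1, 6 and 7 above 4 of the upper ones or more. The difference of 1.47 ± 0.53 did not pass (adjusted p = 0.0725, limma), and it did without section 1 (1.63), section 6 (1.73), section 7 (1.66) or section 16 (1.65), with adjusted p-values of 0.0353 to 0.0493. The change along the line, 2.04 ± 0.86 (adjusted p = 0.0892), did not pass in any of 26 alternatives.

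Peg10 is derived from a retrotransposon, is expressed from the paternal copy, and is required for the mouse placenta to form. It lies on chromosome 6 from 4747306 to 4760517 on the plus strand, 98 bases from the oppositely transcribed imprinted gene Sgce. In the upper sections Peg10 was highest in section 14 at 3.13, had a median of 2.16 and was lowest in section 19 at 0.04. In the lower sections it was at 2.40 in section 3, at 0.70 in section 5 and at or below 0.19 elsewhere, with a median of 0.12. The difference of 1.61 ± 0.45 passed (adjusted p = 0.0213, limma), but not without sections 1 and 2 (1.47, adjusted p = 0.0625), with quantile normalization (1.23, adjusted p = 0.0700) or with the covariate (1.48, adjusted p = 0.132). Along the line the change of 1.58 ± 0.82 did not pass (adjusted p = 0.165), and it did without section 19 (2.21, adjusted p = 0.0453). Sgce was listed at 0 in most sections and reached at most 2.43 in the upper and 0.34 in the lower sections.

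Commd1 encodes a small protein of the COMMD family, which takes part in the recycling of membrane proteins from endosomes and in copper handling. It is known as imprinted in the adult mouse brain, and its gene, on chromosome 11 from 22896136 to 22982382 on the minus strand, contains the imprinted gene Zrsr1 on the other strand. Its levels were scattered within both groups of sections. In the upper sections they ran from 0.69 in section 12 to 6.14 in section 18, with a median of 4.77. In the lower sections they ran from a listing of 0 in section 1 to 6.08 in section 2, with a median of 4.06. The difference of 0.70 ± 0.84 did not pass (adjusted p = 0.595, limma) and the groups overlap over almost their whole range. Zrsr1 shares 412 exon bases with Commd1, so that these genes are not separable there. Zrsr1 itself was lower than Commd1 in all but 3 E5.75 sections, namely 1, 3 and 12, and it was highest in section 1 at 4.56.

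Markers of some tissues moved with the upper sections. Of 10 extraembryonic ectoderm markers, 6 to 10 reached an FPKM of 1 per upper section, with a summed FPKM of 166.9 to 431.2, against 1 to 4 markers and 6.9 to 37.3 per lower section. Along the line 6 of the 10 rose, beside 18.9% of all genes tested, and 1, Sox2, fell (-3.76 ± 1.22). Of 12 ectoplacental cone and giant cell markers, 4 to 11 were reached in upper sections (sum 52.5 to 1478.3), against 1 to 6 in lower ones (5.3 to 394). Epiblast markers summed to 47.8 to 187.2 in the upper and 161.3 to 789.7 in the lower sections, and Otx2 was listed at 0 in all upper sections. Along the line 8 of these 10 markers fell, beside 231 of 11149 genes tested. Nanog (-0.90 ± 0.55) and Utf1 (1.80 ± 1.05) did not pass. Visceral endoderm markers overlapped in sum, at 2.3 to 160.5 and 2.7 to 179.2. Of 13, 3 (Amn, Gata6 and Cited1) were higher in the upper sections and 0 lower, beside 10.4% of all genes tested that were higher. With quantile normalization 0 of the 13 were higher. Gata6 was listed at 0 in all lower sections, so it could only come out higher. Parietal endoderm markers summed to 14.7 to 112.2 in the upper and 13.6 to 55.9 in the lower sections. Of these 6 markers, 2 (Sparc and Thbd) rose along the line, beside 18.9% of all genes tested, and 0 did with quantile normalization. Thbd was listed at 0 in all lower sections, so its direction was fixed beforehand. Markers of the decidua were also higher in some upper sections, at 3 to 315.7 against 0 to 15.8, or at 2.4 to 140.4 against 0 to 15.4 without Prl8a2, which the ectoplacental cone list also holds, with Cryab at up to 6.81 and Dcn listed at 0 in all upper sections, and of 8 blood markers only Cd52 and Tyrobp were in the table, summing to at most 30.5 in upper sections and to 0 in lower ones. What part the mix of tissues has in the members' differences was not tested.

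Within the upper sections, 0 of 6 changed with section number (limma, 1.67% of 9967 genes did in either direction). At an unadjusted p under 0.05, only Peg10 did, as did 1522 genes. Its change was -2.06 ± 0.80 (adjusted p = 0.223), with 2.54 to 3.13 in sections 10 to 14, 1.40 to 2.16 in sections 15 to 18 and 0.04 in section 19. Without section 19 it was -1.15. For Sfmbt2 the change was 0.74 ± 0.44 and for Gab1 1.22 ± 0.74, while Igf2r (-0.74 ± 0.56) and Grb10 (-1.12 ± 0.72) had fitted values in the other direction and Commd1 had 1.503 ± 1.303. Over the same sections 8 of 11 tested ectoplacental cone markers rose and 5 of 10 extraembryonic ectoderm markers fell.

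All 6 members were listed at 0 in both VE libraries. In sections 6 and 7 of the same embryo, Igf2r was at 2.49 and 2.28, Grb10 at 3.56 and 3.08, and Commd1 at 5.002 and 5.43, while Sfmbt2 was at 0.81 and 0, Gab1 at 0.06 and 0, and Peg10 at 0.09 and 0.16. Such a listing was common there: of the 6026 genes at or above an FPKM of 1 in both of these sections, 59.3% were listed at 0 in both VE libraries too. In the fit of the VE libraries against sections 6 and 7 (2 against 2, limma), Igf2r, Grb10 and Commd1 passed the filter through sections 6 and 7 alone, so their direction was fixed beforehand and their calls as lower are no result about them, and 56.6% of 6413 genes tested were called lower. With quantile normalization 0 genes passed, and with sections 4 to 8 in place of 6 and 7 Igf2r and Grb10 did not pass. Of 13 measured visceral endoderm markers, 4 and 7 reached an FPKM of 1 in the VE libraries. Apob was at 3.55 and 5.53 there and at or below 1.35 in all sections, while Amn and Ttr were above 0 in the VE library of section 7 only. Markers of other tissues were present as well. Their summed FPKM in the VE libraries ran from 63.7 to 660.5 for the ectoplacental cone and giant cell, from 74.3 to 316.0 for parietal endoderm, from 207.7 to 232.3 for the epiblast and from 46.2 to 62.1 for extraembryonic ectoderm, beside 50.5 to 479.8 for visceral endoderm. The giant cell gene Prl3d1 stood at 9.17 and 5.81 there.

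At E5.5, 3 of 6 rose along the 9 section numbers, namely Sfmbt2, Igf2r and Grb10, where 28.3% of 8251 genes tested did. The median change was 2.03 for the 6 and 1.22 for all genes tested. With quantile normalization 844 genes rose and 324 fell, against 2332 and 215 without it. Section 1 of this stage was poor, with 2288 genes at an FPKM of 1, against 6387 in part A of section 10, and Rn45s at 69.8% of its summed FPKM.

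Sfmbt2 was at 2.26 in section 1, 0.78 in section 2 and 0.21 in section 4, reached 3.10 in section 5, and stayed between 3.82 and 4.20 in sections 6 to 10. Its change was 3.39 ± 1.05 (log2, SE, adjusted p = 0.0238, limma). Igf2r was listed at 0 in sections 1 and 2, stood at 0.98 and 1.03 in sections 4 and 5 and at 1.56 to 2.21 from section 6 on, a change of 2.39 ± 0.68 (adjusted p = 0.0158). Grb10 was listed at 0 in section 1 and reached 2.61 in section 10, with a change of 2.27 ± 0.73 (adjusted p = 0.0282). Sections 6 to 10 thus hold the highest 5 values of each of these 3 genes. More of all genes were also above 0 in sections 6 to 10 than in sections 1, 2, 4 and 5. The share of all genes with that order was not counted, and these 3 genes were picked by their rise in the same values. The order is thus no result about these 3 genes. None of the 3 passed without sections 1 and 2 (2.86, 1.15 and 1.58, adjusted p = 0.108 to 0.328) with quantile normalization or with the covariate for genes detected. Sfmbt2 also did not pass without section 2 alone (2.91, adjusted p = 0.0718), nor Grb10 without section 1 (1.68, adjusted p = 0.114). Leaving out section 10 also ended the Grb10 call (2.04, adjusted p = 0.0772).

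The other 3 members did not pass at E5.5. Gab1 had its highest value in section 6 at 2.82, was at 2.28 in section 4 and stood at 1.40 and 1.65 in sections 9 and 10. Peg10 was highest in section 7 at 1.89 and stood at 0.97 in section 10. So both were highest in the middle of the series, which a line does not describe. Commd1 was highest in section 1, at 6.38 or an FPKM of 82.4, was at 1.59 in section 2, listed at 0 in section 5 and at 4.58 to 5.16 from section 7 on. Its change was 1.78 ± 1.65 (adjusted p = 0.408, limma), and without section 1 it rose by 4.82 ± 1.09 (adjusted p = 0.00770). In section 1 the only other member above 0 was Sfmbt2.

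**Figure D2:**
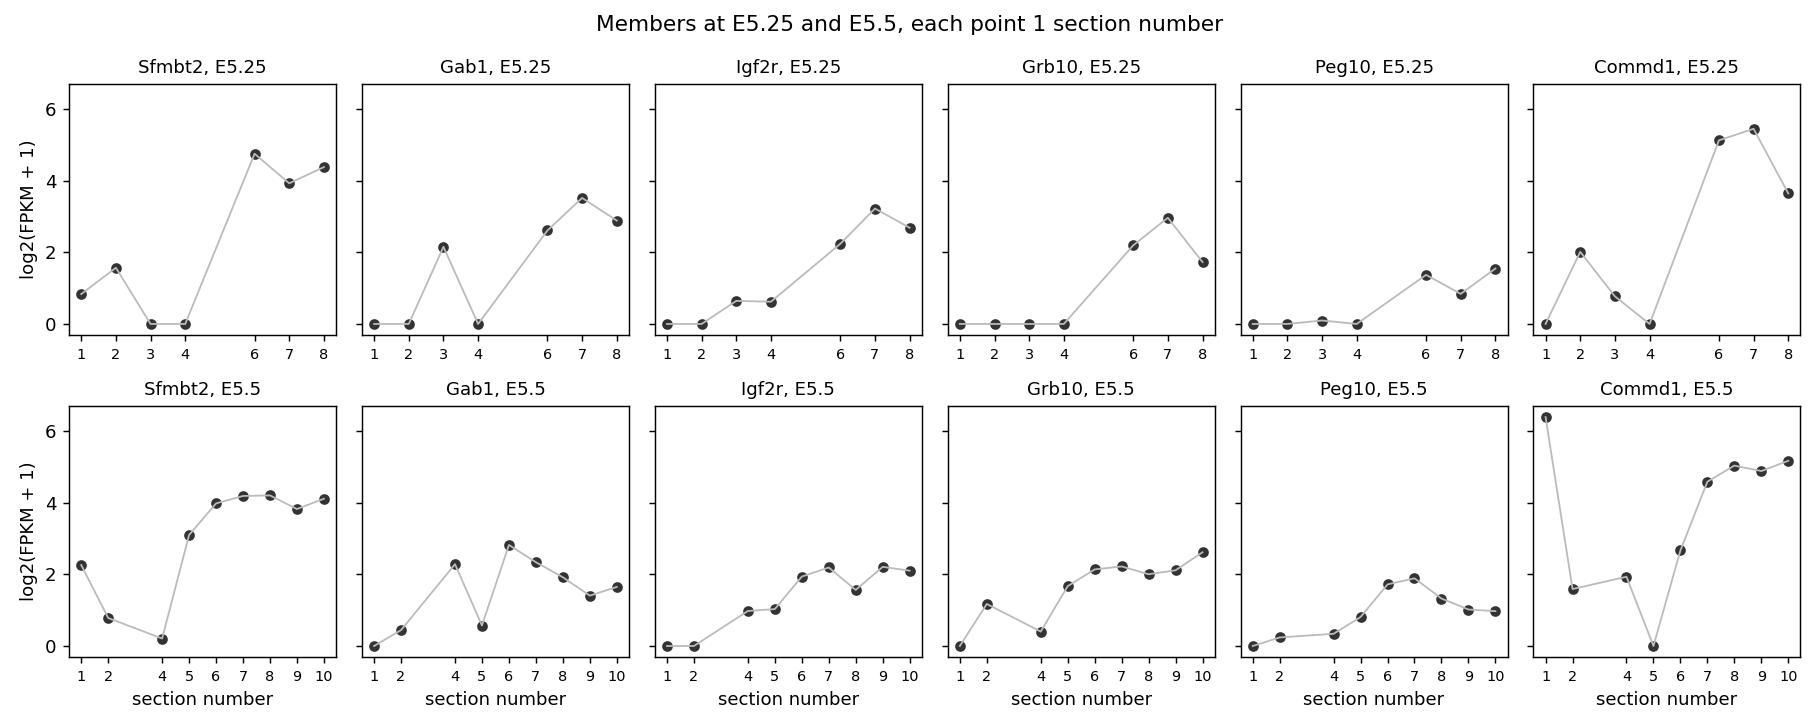
Level of each gene in log2(FPKM + 1) against section number at E5.25 (top row, 7 sections) and E5.5 (bottom row, 9 section numbers, section 10 being the mean of its 2 parts). All 6 genes are detected in E5.25 sections 6 to 8, and Commd1 is highest in section 1 at E5.5.

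At E5.25, 0 of 6 passed over the 7 sections (limma), where 0.378% of 7148 genes tested rose. All 6 had an unadjusted p under 0.05, as had 2493 of the genes tested, so this too was common. Sections 6, 7 and 8 held the highest values of every member. The share of all genes with that order was not counted, so the order is no result about the members. In these sections 74.3% to 84.8% of genes were above 0, against 28.4% to 56.0% in sections 1 to 4. Sfmbt2 was at 4.75, 3.92 and 4.38 in sections 6, 7 and 8, and at 0.83, 1.57, 0 and 0 in sections 1 to 4. Gab1 was at 2.61, 3.52 and 2.88 there, against 2.15 in section 3 and 0 in sections 1, 2 and 4. Igf2r was at 2.24, 3.22 and 2.68, and at most 0.64 in sections 1 to 4. Grb10 was listed at 0 in sections 1 to 4, which fixed its direction beforehand. It had 2.19, 2.96 and 1.72 in sections 6, 7 and 8. Peg10 reached 1.37, 0.84 and 1.55 in these sections and at most 0.10 below them. Commd1 had 5.12, 5.44 and 3.64, against at most 2.01 in sections 1 to 4. The fitted changes were 1.63 ± 0.69 for Peg10 and 2.89 to 4.88 for the others (adjusted p = 0.0664 to 0.101). Sections 6 to 8 had 5636 to 6461 genes at an FPKM of 1 and sections 1 to 4 had 2046 to 4282, and the part of that gap in these values was not tested.

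**Figure D3:**
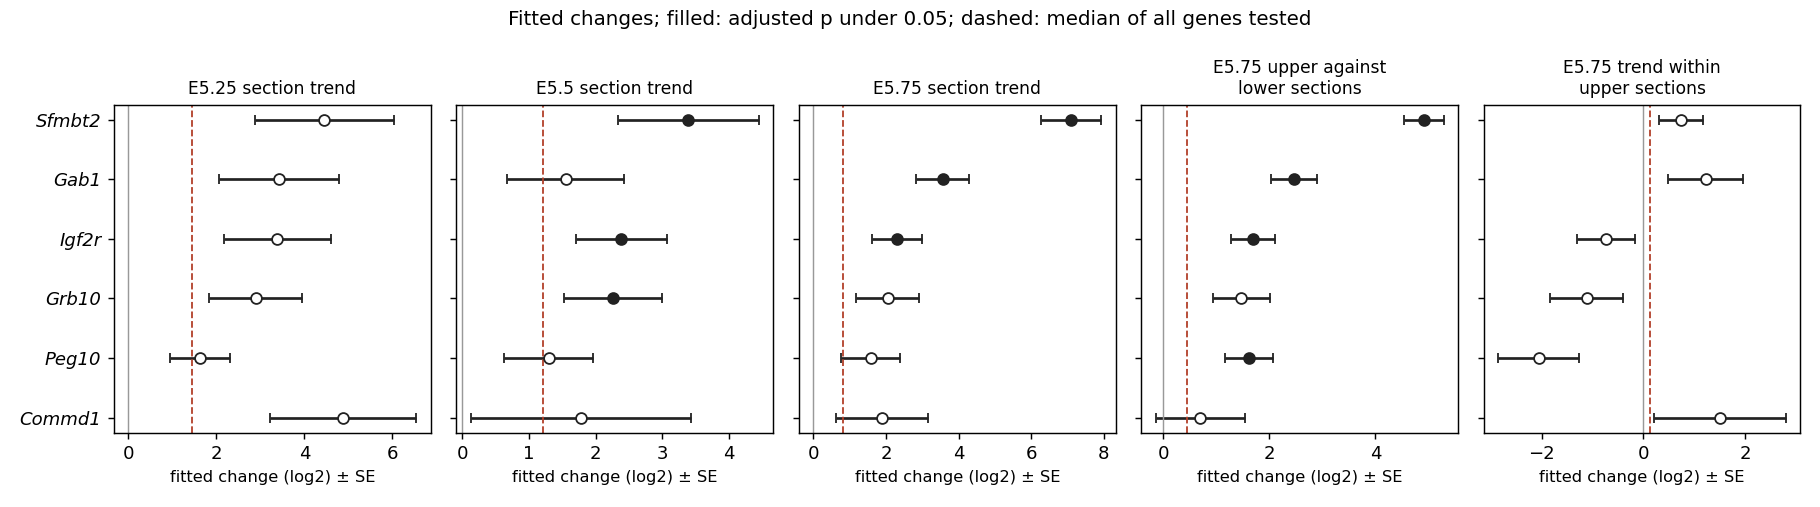
Fitted change of each gene on the log2 scale with its SE in 5 comparisons. The section trends run from the first to the last section, a filled point has an adjusted p under 0.05, and the dashed line is the median of all genes tested. Sfmbt2 stands farthest from that median in both comparisons over all E5.75 sections, at 7.09 and 4.92, and 0 points are filled at E5.25 and within the upper sections.

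The tables of the 3 stages were scaled apart, so the stages were not tested against each other. Side by side, median Sfmbt2 was 4.38 in E5.25 sections 6 to 8, 4.11 in E5.5 sections 6 to 10 and 5.41 in the E5.75 upper sections. In the same sections Igf2r had medians of 2.68, 2.10 and 3.46, and Peg10 had 1.37, 1.32 and 2.16.

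Ordered by their median FPKM, a scale per gene length, the E5.75 upper sections gave Sfmbt2 (41.6), Commd1 (26.2), Igf2r (10.01), Grb10 (9.15), Gab1 (7.17) and Peg10 (3.46). The ranges of all neighbours in this order overlap, but the lowest Sfmbt2 level (23.8) is above the highest of Igf2r (12.2), Grb10 (16.04), Gab1 (13.02) and Peg10 (7.73). The lower sections gave another order, with Commd1 first at a median FPKM of 15.7, Grb10 at 2.91 and Igf2r at 2.52, and Peg10, Sfmbt2 and Gab1 at 0.075 to 0.089. At E5.5 and E5.25, Commd1 and Sfmbt2 were the first 2 in sections 6 and up, and Peg10 was last.

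The members did not share 1 profile. Over the 17 E5.75 sections, Pearson's r of the log2 levels was 0.86 for Sfmbt2 and Gab1 and 0.81 for Sfmbt2 and Igf2r, but 0.33 for Grb10 and Peg10 and -0.14 for Peg10 and Commd1. These are descriptions over sections of 1 embryo that share libraries and detection. Among 3942 genes with a mean FPKM of at least 5, the profile most like that of Sfmbt2 was Tinagl1, a secreted matrix protein (r = 0.984), then Tfap2c, a trophoblast transcription factor (0.979), and Fgfr2, the FGF receptor of trophoblast stem cells (0.976). Over the 9 E5.5 section numbers their r with Sfmbt2 was 0.925, 0.909 and 0.653. The profiles like that of Gab1 included Slc22a17 (0.947) and the actin-binding Cald1 (0.927), with r at E5.5 of 0.804 and 0.067. Peg10 was most like the adenylate kinase gene Ak1 (0.856), Eomes, a transcription factor of extraembryonic ectoderm (0.820), and Arhgef1 (0.819). Among the genes most like Igf2r were Sptlc1, of sphingolipid synthesis (0.884), and Pmm2, of mannose metabolism (0.870). Grb10 was most like Nfe2l2, Klf9 and Ndufb3 (0.850 to 0.833), and Commd1 most like Fgfr1op2, Dbnl and Ccnb1 (0.859 to 0.847). For Klf9 and Fgfr1op2 the r at E5.5 was below 0, at -0.226 and -0.234.

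Besides Sfmbt2 and Gab1, 3 more genes reported with H3K27me3-dependent imprinting were measured, Slc38a4, Smoc1 and Phf17 (now named Jade1). All 5 rose along the E5.75 sections, beside 18.9% of all genes tested, and all 5 were higher in the upper sections, beside 10.4%. With quantile normalization 3 rose along the sections (Sfmbt2, Gab1 and Slc38a4) and 4 were higher in the upper ones (these and Phf17). Slc38a4, an amino acid transporter of the placenta, was at 1.51 to 4.44 in the upper and 0 to 1.16 in the lower sections (line 4.42 ± 0.72, adjusted p = 0.000220, limma). Its groups did not overlap, as for 1.79% of genes tested. Smoc1, a secreted matrix protein, was at 0.64 to 3.43 and at 0 to 2.65 (line 3.08 ± 0.76, adjusted p = 0.00673). Phf17, a subunit of a histone acetyltransferase complex, was at 3.82 to 4.89 and at 0.70 to 3.59 (line 2.85 ± 0.70, adjusted p = 0.00638). The median change of the 5 was 3.56, beside 0.80 for all genes. At E5.5, 2 of the 5 rose (Sfmbt2 and Slc38a4), a share near the 28.3% of all genes, and 0 did with quantile normalization.

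**Figure D4:**
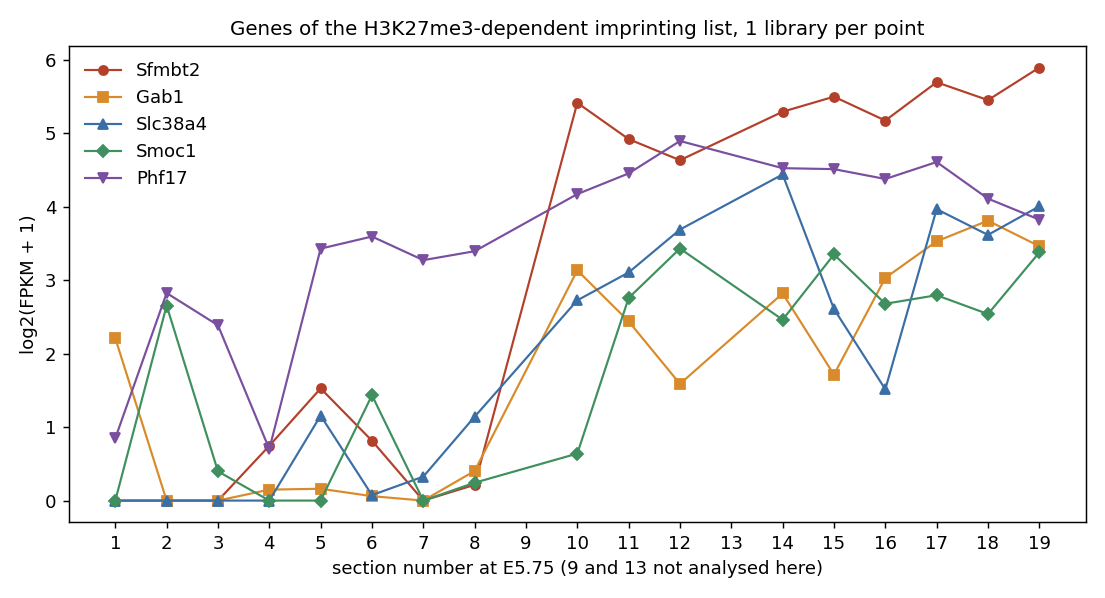
Levels of Sfmbt2, Gab1, Slc38a4, Smoc1 and Phf17 in log2(FPKM + 1) against section number at E5.75, 1 point per section. All 5 are higher in the upper sections, and Phf17 is the one already above 3 in sections 5 to 8.

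Other lists hold genes related to the members. In a list of mannose 6-phosphate pathway and lysosomal genes, set beside Igf2r, 7 of 14 rose along the E5.75 sections and 0 fell. Their median change was 2.68, beside 18.9% that rose and 0.80 for all genes tested. With quantile normalization 6 of the 14 rose (median 1.67), beside 7.6% of all genes. They included the lysosomal membrane protein Lamp1 (3.13 ± 0.55), the cathepsins Ctsb (3.22 ± 0.58) and Ctsd (3.82 ± 0.77), and Nagpa, which uncovers the mannose 6-phosphate tag (3.30 ± 0.69). The other receptor of that tag, M6pr, rose by 3.07 ± 0.69. Gnptab (-0.33 ± 0.67) and Gnptg (0.74 ± 0.96) of the same list did not pass. In the IGF pathway 4 of 12 rose and 1 fell, with a median change of 0.46, below that of all genes, and with quantile normalization 2 rose and 3 fell (median -0.33). The ligand gene Igf2, of the chromosome 7 cluster, in which 6 of 10 rose, rose by 8.35 ± 0.92 and stood at 6.26 to 7.11 in the upper sections, against 0 to 2.30 in the lower ones. The kinase gene Akt1 rose too, at 2.86 to 4.87 in the upper and 0 to 2.04 in the lower sections. Insr, the insulin receptor that Grb10 binds, rose by 1.52 ± 0.51 but did not pass with quantile normalization, while Igfbp2, which binds IGFs, fell by 6.85 ± 1.18.

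Of 10 tested partners of Gab1, 5 rose along the E5.75 sections and 0 fell, beside 18.9% of all genes that rose, and with quantile normalization 3 of the 10 rose. The receptor gene Fgfr2 rose by 5.51 ± 0.85 and Egfr by 2.09 ± 0.54, the adaptor Grb2 by 3.07 ± 0.74, and Ptpn11, which encodes Shp2, by 2.34 ± 0.71. Egfr was low, with a median of 0.26 and at most 2.59 in the upper sections, and at most 0.77 in the lower ones. The shares that rose in the next 3 lists are not far from the 18.9% of all genes. Of 13 polycomb and MBT genes beside Sfmbt2, Suz12 (2.90 ± 0.79) and Bmi1 (2.37 ± 0.61) rose and Phc1 fell by 4.56 ± 0.84, and with quantile normalization only Phc1 passed. Of 6 tested partners of Commd1, only the sorting nexin Snx17 rose (2.44 ± 0.80), and 0 did with quantile normalization. Among 14 tested paralogs of the members 4 rose, M6pr and the COMMD genes Commd3, Commd4 and Commd8 (2.19 to 3.89), and 1 fell, against 3 and 2 with quantile normalization. The gene that fell was Sfmbt1, the closest relative of Sfmbt2, which fell by 1.79 ± 0.60 along the line (adjusted p = 0.0378, limma). Sfmbt1 was at 0 to 1.87 in the upper sections, at 1.21 to 3.08 in sections 1 to 4 and at 0.16 to 1.08 in sections 5 to 8. The difference between the upper and the lower sections did not pass (-0.80 ± 0.42, adjusted p = 0.209, limma). In the VE libraries of sections 6 and 7 Sfmbt1 was at 7.55 and 0.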

How the data were processed

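Per the labels, Smart-seq2 libraries were made from laser-captured pieces of mouse embryos. TopHat2 2.0.4, Cufflinks 2.0.2 and the build mm10 are named in the submitters' processing notes, with no roles, annotation or normalization. The deposited tables, 1 per stage, hold log2 FPKM values as the authors made them, read here as log2(FPKM + 1). At E5.5 the authors deposited 1 joined column for 7 section numbers, by a method not given in the sources used here. The separate columns of section 10, parts A and B, were averaged. The second of these has section 11 as its source name, and taking it so changed no member's call.

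The test was limma 3.58.1 in R 4.3.3, moderated with a mean-variance trend and 2-sided. It took every gene that reached an FPKM of 1 in 2 or more of the fitted samples, and p-values were adjusted over all of these by Benjamini and Hochberg's method, with a threshold of 0.05. A trend is a line in section number scaled so that its change runs from the first to the last section. All 6 members passed this filter in every section comparison and 3 in the VE comparison. The fits were also run on simulated data with independent normal noise. These had no floor at 0 and no detection that varied with section number, so they do not test the fits for those features. Members and lists were chosen with earlier results of these data known. The genes named are all members, up to 4 per list with the smallest p in the E5.75 trend, the 3 most alike genes by r (some are not reported here) and, chosen after their values were seen, Airn, Zrsr1, Sgce, Smoc1, Sfmbt1 and single markers.

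Alternatives were other pseudocounts (0.1, 5), filters, scalings and sections. Promoter windows are from RefSeq and gene positions from GENCODE, both on GRCm38. Peg10 has no window. Figures used matplotlib 3.10.9.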

Additional observations from a re-analysis of the deposited data

How the results depend on the processing

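Of 642 alternative values of the members' 33 fitted changes, 598 kept direction and side of the threshold, 28 lost a call, 13 gained one and 3 changed sign. The sign changes were at E5.5: Gab1 (-1.93) and Peg10 (-0.97) with a covariate for the number of genes detected, and Gab1 without sections 1 and 2 (-0.24). The Sfmbt2 and Gab1 calls at E5.75 held throughout. The E5.75 trend called 2339 genes, 1345 with quantile normalization, 624 with the covariate and 1407 without sections 1 and 2 (leaving out 1 section each, 1677 to 2487). At E5.5 it was 2547, against 1168, 0 and 309 (1703 to 2584). At E5.25 it was 29, against 1006 and 0 with pseudocounts of 0.1 and 5, 0 unfiltered, 877 with a filter at an FPKM of 5, 0 with quantile normalization, 402 with a common sum of FPKM, 514 with eBayes without trend and 0 with the covariate (leaving out 1 section each, 3 to 818). At E5.25, Grb10 passed with a pseudocount of 0.1, Sfmbt2, Igf2r and Commd1 with the stricter filter, and Igf2r also with eBayes without trend and without section 4. For the upper against the lower sections 1397 genes passed, 658 with the covariate (1055 to 1421). Within the upper sections it was 166, 96 unfiltered and 106 with eBayes without trend (37 to 229). The VE comparison called 3671 genes, 1688 with the stricter filter and 0 with quantile normalization (leaving out 1 library each, 2 to 5624, the lone library being assumed to vary like the others). With sections 4 to 8 in place of 6 and 7, Igf2r and Grb10 did not pass there. The causes were not tested, apart from fewer genes or samples where a setting is built that way. With section number as a replicate block, the VE comparison called 3800 genes and the same 3 members. The shared numbers are positions, and across genes the deviations of the section 6 samples correlated at 0.000773, which with 2 pairs does not settle whether they pair.

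Depth is unknown and each stage is 1 embryo, so no value speaks for embryos in general. Low detection in the first sections goes in the direction of the members' rise, and at E5.5 the calls cannot be told apart from it. In a piece that mixes tissues, a level is a mean over them.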

Other observations

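Of 8 tested genes that neighbour the members, 2 rose along the E5.75 sections and 0 fell, beside 18.9% of all genes tested that rose. Their median change was 0.83, beside 0.80 for all genes tested. With quantile normalization only B3gnt2 rose. B3gnt2, a glycosyltransferase gene near Commd1, rose by 3.76 ± 0.64 over the 17 sections (limma, adjusted p = 0.000358), and was at 1.78 to 3.82 in the upper and 0 to 2.003 in the lower sections. Tfpi2, a protease inhibitor gene of the Peg10 region with known imprinting in placenta, rose by 1.15 ± 0.41. It was at 0 to 1.64 in the upper sections, with a median of 0, and listed at 0 in the lower ones. Pon2, of the same region, was at 0 to 4.57 in the upper sections and listed at 0 in all lower ones. Its difference was 2.42 ± 0.48 (adjusted p = 0.00167, limma), while its line did not pass (adjusted p = 0.0729). Pon2 and Tfpi2 passed the filter through the upper sections alone. Their direction was thus fixed beforehand, and their calls as higher are no result about them.

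Of 18 tested imprinted and X-linked imprinted genes from other regions, 3 rose at E5.75 and 1 fell, with a median change of 0.07. Rhox5, an X-linked homeobox gene, rose by 8.54 ± 1.47, and stood at 7.25 to 9.20 in the upper and 0 to 6.61 in the lower sections. The signal peptide peptidase gene H13 rose by 2.66 ± 0.70 and Mcts2, which lies inside it, by 3.56 ± 1.12. Zdbf2 fell by 1.66 ± 0.47, at 0 to 0.31 in the upper and 0.32 to 2.31 in the lower sections. As 18.9% of all genes tested rose, the share that rose in this group is near that of all genes. With quantile normalization 1 of the 18 rose (Rhox5) and 2 fell (Zdbf2 and Rtl1), with a median change of -0.86, so the sign of the median depends on the scaling.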
